A study of Mus musculus with 2 samples.

Results

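The mouse second polar body (PB2) and the zygote were compared for transcripts of 6 genes that the oocyte makes in large amounts, among them its secreted growth factors. They were taken from the deposited expression table by symbol: *Gdf9*, *Bmp15*, *Oosp1*, *Omt2a*, *Omt2b* and *Rfpl4*, and each symbol matched 1 row, so that 6 of the 11262 genes of the table were members. PB2 is the small cell that the egg extrudes after fertilization. A single library was made from PB2s and a single library from zygotes, both of untreated C57BL/6 embryos (the study's methods give C57BL/6N as its usual strain) that were cultured in KSOM to the late one-cell stage, stripped of the zona pellucida in acid Tyrode's solution, and pipetted in trypsin to separate PB2 from the embryo. By the study's methods, females were superovulated with PMSG and HCG before mating, and cells around the collected embryos were removed with hyaluronidase. The study's methods give 70 PB2s and zygotes as the input, and full-length cDNA of their polyadenylated RNA was amplified. Without a replicate of either library, no test was run and all differences describe these 2 libraries.

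The oocyte makes its own growth factors. GDF9 and its X-linked relative BMP15 belong to the TGF-β family, are secreted by the oocyte, and act on the granulosa and cumulus cells around it, where they drive follicle growth and cumulus expansion. OOSP1 is a small secreted protein of the oocyte, related in sequence to the placental protein PLAC1. OMT2A and OMT2B are named for oocyte maturation, and RFPL4 is a RING finger-like protein of germ cells that binds proteins of the ubiquitin pathway and cyclin B1. The full-grown oocyte is largely silent in transcription, so RNA of these genes at the one-cell stage is taken as mainly a maternal store. The study reports that PB2 itself likely transcribes from the late one-cell stage, and these libraries cannot tell stored from new RNA.

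Before their values, the sequences that bear on how these genes were counted are given. *Omt2a* (chr9:78311972-78314796, minus strand) and *Omt2b* (chr9:78327589-78329620, plus strand) lie 12792 bases apart on GRCm38 and face away from each other. Their longest protein-coding transcripts in GENCODE M21, of 1167 and 735 bases, share an identical run of 260 bases, of which 120 are the end of the coding sequence and 140 follow the stop codon. That run is 22.3% of the *Omt2a* transcript and 35.4% of the *Omt2b* transcript. It is the longest shared stretch and not the only one, since the 3′ ends shown further below are also identical and lie beyond it. The last 180 coding bases of both genes are shown 5′ to 3′ because they hold the point where the genes become the same, with the shared bases in capitals.
Omt2a: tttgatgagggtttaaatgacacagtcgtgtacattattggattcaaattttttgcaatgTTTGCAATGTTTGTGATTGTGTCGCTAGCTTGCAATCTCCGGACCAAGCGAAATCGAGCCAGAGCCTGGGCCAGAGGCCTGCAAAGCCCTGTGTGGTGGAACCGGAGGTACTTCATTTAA
Omt2b: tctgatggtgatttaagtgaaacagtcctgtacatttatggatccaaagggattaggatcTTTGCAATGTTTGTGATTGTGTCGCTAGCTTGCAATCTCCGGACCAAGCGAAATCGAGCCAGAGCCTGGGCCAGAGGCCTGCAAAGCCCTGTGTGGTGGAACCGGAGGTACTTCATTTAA
A read of 100 bases that falls inside the shared run cannot be assigned to 1 of the genes by sequence. Of all windows of 100 bases, 16.8% of those of *Omt2a* and 28.1% of those of *Omt2b* also occur in the other transcript. How the authors' counting treated such reads is not given in the sources used here, so the separate values of *Omt2a* and *Omt2b* are uncertain. The other relatives among these genes do not have this limit, since the longest identical run was 12 bases between *Gdf9* and *Bmp15*, 12 between *Oosp1* and *Oosp2*, and 11 between *Oosp1* and *Oosp3*.

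Maternal mRNAs are often stored with a short poly(A) tail, and the cytoplasmic polyadenylation element (CPE) near the 3′ end, with the poly(A) signal, sets when the tail is lengthened. Since the libraries were made from polyadenylated RNA, the 3′ ends are shown as GENCODE M21 annotates them: 30 bases that end at the last poly(A) signal, with poly(A) signals (AATAAA or ATTAAA) and CPEs (TTTTAT or TTTTAAT) in capitals.
Gdf9: tgctgtggTTTTATgtgacggaagAATAAA
Bmp15: ttatgtattttcttaatcttaaagAATAAA
Oosp1: taattgtataaaatctgATTAAAgAATAAA
Omt2a: tggggttttaacggTTTTATAATAAATAAA
Omt2b: tggggttttaacggTTTTATAATAAATAAA
Rfpl4: gatgttgtggAATAAATAAActaaATTAAA
In the last 100 bases of the longest protein-coding transcript, *Gdf9* held 1 CPE, *Rfpl4* 1, *Omt2a* 2 and *Omt2b* 2. *Bmp15* and *Oosp1* held 0 there, and their last CPE starts 530 and 120 bases before the end. The printed signal, however, ends 87 bases before the annotated end in *Oosp1*, 38 in *Omt2b* and 22 in *Bmp15*. The last CPE of *Oosp1* thus lies close upstream of its printed signal. It is cut by the start of the printed line, where its final bases stand in lower case. Of 10101 genes compared whose 3′ UTR has at least 100 bases, 20.1% held a CPE in that window. These matches are letters in the annotated 3′ end and say nothing of tail length, which was not measured.

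The plot of TPM by library shows a group of 4 transcripts above 10000 TPM in both libraries and, well below them, the growth factors. TPM (transcripts per 1000000) corrects a level for transcript length and library size, so genes can be ranked by it, while between libraries it compares proportions. PB2 holds far less cytoplasm than the zygote, and fewer contributing cells and less RNA per cell cannot be told apart in such values. The depth behind the values is unknown, since TPM keeps no record of read numbers. Together the 6 transcripts made up 5.22% of a full library of 1000000 TPM in the zygote and 4.84% in PB2.

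**Figure D1:**
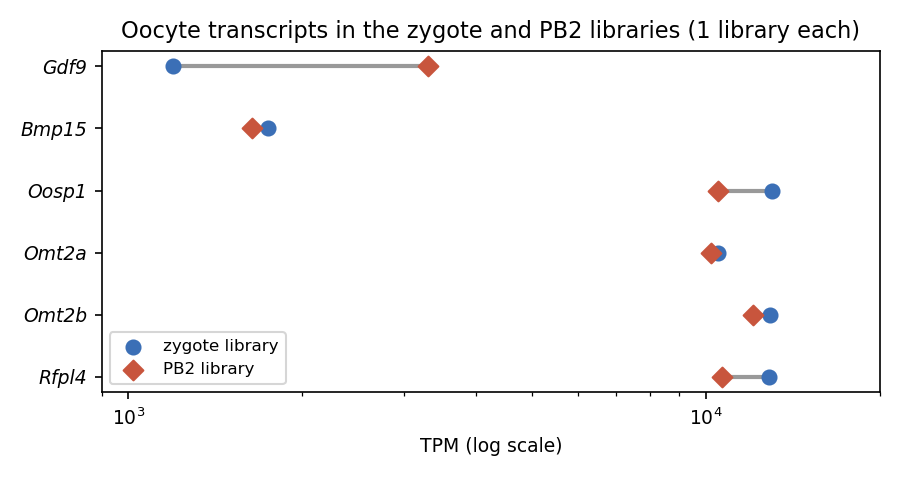
TPM (log axis) of the 6 oocyte transcripts in the zygote library (circles) and the PB2 library (diamonds), with 1 library each and no error bars for that reason. *Gdf9* has 1196.3 TPM in the zygote and 3298.9 in PB2, while the symbols of the other 5 transcripts lie close together.

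*Gdf9* (ENSMUSG00000018238, chr11:53431023-53437904, plus strand, 2 exons) was the transcript of the 6 with a higher value in PB2. It had 1196.3 TPM in the zygote against 3298.9 TPM in PB2, a 2.76-fold difference. Its log2 ratio was 1.46, where the log2 ratio is PB2 over zygote after 1 TPM is added to both values. *Gdf9* was ranked 112 by TPM among all genes of the zygote and 35 among those of PB2. A rounding of the deposited values to 1 decimal allows a ratio between 2.757 and 2.758, so rounding plays no part at this level.

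*Bmp15* (ENSMUSG00000023279, chrX:6314107-6320721, minus strand, 2 exons), the partner of *Gdf9*, had 1746.8 TPM in the zygote against 1637.7 TPM in PB2. The difference, PB2 minus zygote, was -6.25% of the zygote value, with a log2 ratio of -0.09 and ranks of 76 and 65. The order of the growth factors thus differed between the libraries, and the *Gdf9* to *Bmp15* ratio was 0.685 in the zygote and 2.01 in PB2. This ratio is taken within a library and does not depend on how the libraries are scaled to each other. It does not remove a trend of the log2 ratio with transcript GC content, which is described below. *Gdf9* has 53.0% GC and *Bmp15* 42.5%, and with that trend removed their log2 ratios were 0.96 and 0.11.

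*Oosp1* (ENSMUSG00000041857, chr19:11667460-11691150, minus strand, 5 exons) was the most abundant of the 6 in the zygote, with 13021.0 TPM, and had 10495.6 TPM in PB2. The difference of -19.4% was the widest, in percent, of the 5 transcripts with lower values in PB2, and the log2 ratio was -0.31. It was ranked 5 in the zygote and 7 in PB2. *Rfpl4* (ENSMUSG00000035191, chr7:5109787-5116950, minus strand, 3 exons) had 12845.6 TPM in the zygote against 10651.5 TPM in PB2, a difference of -17.1%, with a log2 ratio of -0.27 and ranks of 7 and 6.

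*Omt2b* (ENSMUSG00000038750, 3 exons) had 12899.9 TPM in the zygote against 12065.0 TPM in PB2, where it was the most abundant of the 6, ranked 4. *Omt2a* (ENSMUSG00000066463, 3 exons) had 10501.8 TPM in the zygote against 10218.5 TPM in PB2, and its ratio was the nearest to 1 of the 6 transcripts. Their log2 ratios were -0.10 and -0.04, and *Omt2b* was 1.23 times *Omt2a* in the zygote and 1.18 times in PB2. With their shared end, reads of one may have been counted for the other.

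The order of levels in the zygote was *Oosp1*, *Omt2b*, *Rfpl4*, *Omt2a*, *Bmp15* and *Gdf9*, and in PB2 it was *Omt2b*, *Rfpl4*, *Oosp1*, *Omt2a*, *Gdf9* and *Bmp15*. The top 4 lay within 1.24 times of each other in the zygote and within 1.18 times in PB2, and without replicates their order among themselves cannot be called. They held 4 of the 10 highest ranks in each library. From the highest to the lowest of the 6, levels spanned 10.9 times in the zygote and 7.37 times in PB2.

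Genes with at least 1 TPM in either library, 10645 in all, were compared by their log2 ratio. Of these, 27% differed by 2-fold or more, 18.9% with the higher value in PB2 and 8.09% with the higher value in the zygote. Among the 6 transcripts 1 differed by that much, *Gdf9*, with the higher value in PB2. Their median log2 ratio was -0.09, against 0.21 for all genes compared. Set against that shift of all genes, the log2 ratio of *Gdf9* was 1.25, and those of *Omt2a*, *Bmp15*, *Omt2b*, *Rfpl4* and *Oosp1* were -0.25, -0.30, -0.31, -0.48 and -0.52.

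All 6 are abundant, and abundant genes behaved differently from the table as a whole. In the 120 genes with a mean of at least 1000 TPM over the libraries, the median log2 ratio was -0.28, the lower and upper quartiles were -0.76 and 0.15, and 22.5% differed by 2-fold or more, 5% with the higher value in PB2 and 17.5% with the higher value in the zygote. The 5 transcripts other than *Gdf9*, between -0.31 and -0.04, all lay between those quartiles. *Gdf9* was above the value of 0.93 that marks the upper 5% of these abundant genes, and 3 of them had a larger log2 ratio: *Zbed3* with 2.19, *Sap30* with 2.10 and AU022751 with 1.97, which were named after their values were seen. In the plot of log2 ratio against abundance, *Gdf9* stands apart from the other 5 for this reason.

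**Figure D2:**
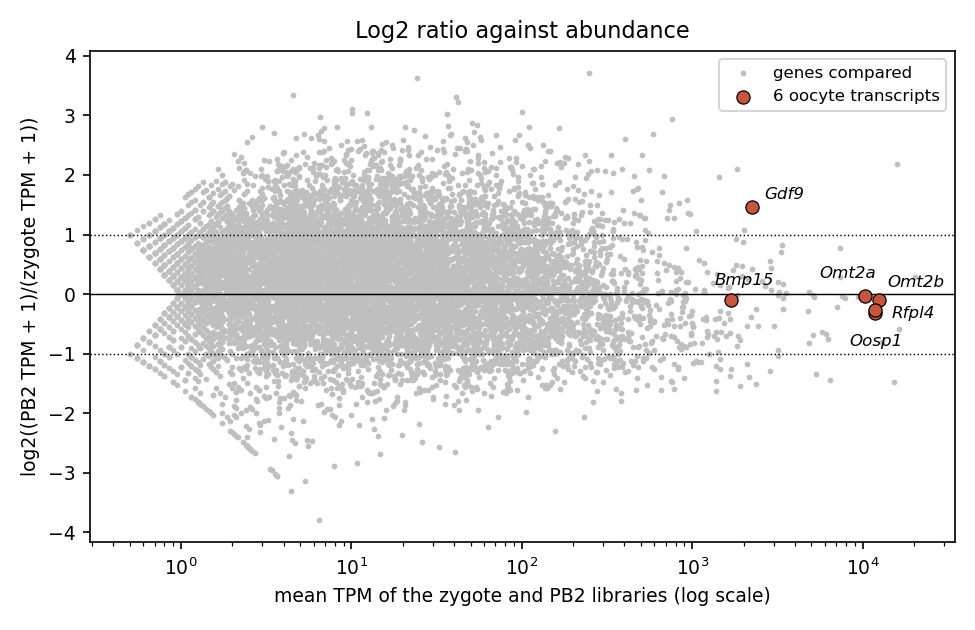
Log2 ratio (PB2 over zygote, pseudocount of 1 TPM) against the mean TPM of both libraries (log axis) for 10645 genes in grey and the 6 oocyte transcripts in red, with dotted lines at 2-fold. *Gdf9* lies above the upper line at 1.46, and the other 5 lie between -0.31 and -0.04 at the abundant end of the table.

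The transcript of *Gdf9* also differs from the other 5 in base composition. It has a GC content of 53.0%, whereas the others lie between 42.0% for *Oosp1* and 46.6% for *Omt2a*, and the median of all genes compared is 49.1%. Over the 10606 genes compared that have a transcript in GENCODE M21, the log2 ratio went up with GC content (Spearman's rho of 0.44 across genes of the same 2 libraries, which are not independent replicates). The trend stood at 0.50 at the GC content of *Gdf9*, and with the trend subtracted its log2 ratio was 0.96, below 2-fold. The log2 ratios of the other 5 were then between -0.12 for *Rfpl4* and 0.11 for *Bmp15*, so that *Bmp15* changed sign. Base composition thus moved with the difference between *Gdf9* and the other transcripts, and its part in that difference was not tested. Among the abundant genes, 30 had a GC content of at least 50%, a limit chosen after the values were seen. Their median log2 ratio was 0.13 and 5 of them, *Gdf9* included, passed 2-fold toward PB2, while 2 passed it toward the zygote. By the log2 ratio with the GC trend removed, *Gdf9* was ranked 6 among the 120 abundant genes.

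Length went less with the log2 ratio (Spearman's rho of 0.17 over the same genes). The transcripts have 735 bases for *Omt2b*, 972 for *Oosp1*, 1167 for *Omt2a*, 1598 for *Rfpl4*, 1793 for *Gdf9* and 3060 for *Bmp15*, so that 5 of the 6 are well under the median of 3067 bases of all genes compared. With the trend on length removed, the log2 ratio of *Gdf9* was 1.29, and those of *Omt2b* and *Omt2a* were 0.34 and 0.14, above 0, whereas *Bmp15* was at -0.43.

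**Figure D3:**
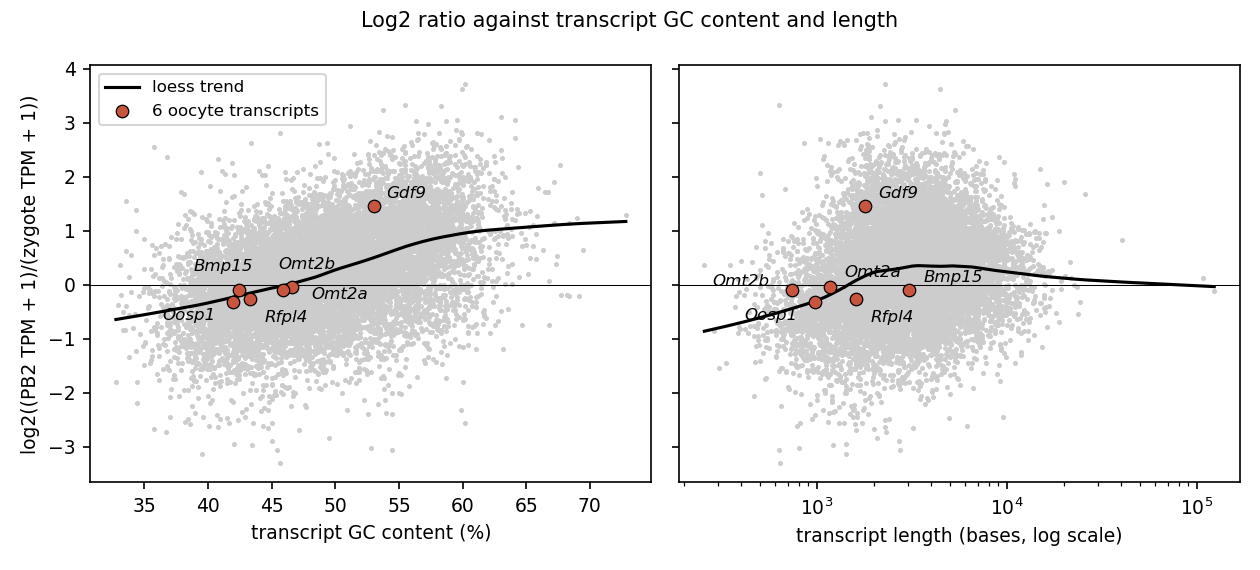
Log2 ratio against transcript GC content (left, %) and transcript length (right, bases on a log axis) for the genes compared in grey, with the loess trend as a black line and the 6 oocyte transcripts in red. *Gdf9* is the GC-richest of the 6 at 53.0% and lies above both trends, and the other 5 lie near the GC trend.

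Genes with the most similar levels were looked for by their distance on log2(TPM + 1) over the 2 libraries, which is a weak measure of likeness. *Oosp1* and *Rfpl4* were each other's nearest gene in the whole table, at a distance of 0.029, followed by *Omt2b* for both. The nearest to *Omt2b* was *Tcl1*, a cofactor of the kinase Akt, with 12367.8 TPM in the zygote against 12011.9 TPM in PB2. For *Omt2a* it was E330034G19Rik with 9581.3 and 9248.5 TPM, and next *Rfpl4*, which was also the next one for *Omt2b*. *Bmp15* was closest to *Oas1e*, a member of the oligoadenylate synthetase family, with 1674.1 and 1554.4 TPM, and to the ubiquitin hydrolase gene *Uchl1* with 1578.7 and 1717.4 TPM. *Gdf9* had no neighbour as close: *Rdx*, which encodes the cortical protein radixin, was at a distance of 0.30 with 1295.2 and 2719.9 TPM, and *Laptm4b*, which encodes a lysosomal membrane protein, at 0.42 with 1398.0 and 2569.6 TPM.

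For *Oosp1* and *Rfpl4*, which had nearly the same values in both libraries, the 250 bases before their RefSeq start sites are shown (5 of the 6 genes matched the RefSeq table, GRCm38.p6, chr19:11691052-11691301 and chr7:5116912-5117161, both minus strand), with E-boxes in capitals. A link between these sequences and the levels was not tested, and RNA of these genes at this stage is taken as mainly a maternal store. The E-box, CANNTG, is the binding motif of basic helix-loop-helix factors such as the oocyte factor FIGLA.
Oosp1: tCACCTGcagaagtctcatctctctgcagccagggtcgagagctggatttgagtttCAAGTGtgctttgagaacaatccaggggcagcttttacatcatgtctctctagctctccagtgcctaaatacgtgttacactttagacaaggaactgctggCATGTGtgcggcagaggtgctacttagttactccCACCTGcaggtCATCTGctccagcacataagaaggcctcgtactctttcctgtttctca
Rfpl4: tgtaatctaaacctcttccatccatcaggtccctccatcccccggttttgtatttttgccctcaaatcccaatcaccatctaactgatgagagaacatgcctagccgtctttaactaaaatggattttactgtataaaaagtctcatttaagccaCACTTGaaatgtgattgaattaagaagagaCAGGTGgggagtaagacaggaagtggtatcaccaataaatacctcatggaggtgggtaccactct
In these windows *Oosp1* has 5 E-boxes, *Omt2a* 3, *Omt2b* 2, *Rfpl4* 2 and *Bmp15* 1. The RefSeq start sites differ from the gene bounds of GENCODE M21 given above. By those bounds the windows of *Omt2a* (chr9:78314049-78314298) and *Omt2b* (chr9:78327780-78328029) lie inside the genes. Those of *Oosp1* and *Rfpl4* overlap theirs in part, so that some E-boxes of *Oosp1* fall within the gene. E-boxes are common, and 66.2% of the 32851 promoters of the reference hold at least 1 in the same window. TAATTG, searched on both strands as a motif of homeodomain factors such as NOBOX, occurs in the window of *Omt2b* and in 7.17% of all promoters. TATAAA, also searched on both strands, occurs in those of *Bmp15* and *Rfpl4* and in 12.4% of all.

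Neighbours on the chromosome were looked at within 100 kb of each gene in GENCODE M21, and none of the annotated genes there overlaps *Gdf9*, *Bmp15*, *Oosp1*, *Omt2a*, *Omt2b* or *Rfpl4*. *Uqcrq*, which encodes a subunit of complex III of the respiratory chain, starts 191 bases from *Gdf9* on the opposite strand. It had 26.9 TPM in the zygote against 11.2 TPM in PB2, a log2 ratio of -1.19, opposite in sign to that of *Gdf9*. *Zcchc10* near *Gdf9* had 1528.8 TPM in the zygote against 921.5 TPM in PB2, and *Aff4* had 1.3 and 1.2 TPM.

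*Oosp1* is flanked by its relatives. *Oosp3*, 5904 bases away, had 5244.2 TPM in the zygote against 4287.4 TPM in PB2, a log2 ratio of -0.29 that is close to the -0.31 of *Oosp1*. *Oosp2*, 6900 bases away on the other side, had 1523.8 and 959.5 TPM, a log2 ratio of -0.67. All 3 *Oosp* genes thus had higher values in the zygote, at levels that differ widely from gene to gene. Genes with a mean of at least 1000 TPM had a median log2 ratio of -0.28 and quartiles of -0.76 and 0.15. The *Oosp* genes lay between those quartiles, so their direction is not particular to them. *Ms4a6d*, *Mrpl16* and *Stx3* in the same window were below 100 TPM, and *Shroom4*, the gene found near *Bmp15*, had 10.6 and 6.7 TPM.

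Close to *Omt2a* and *Omt2b* lie *Ooep* and *Dppa5a*. *Ooep*, which encodes a subunit of the subcortical maternal complex, had 1235.4 TPM in the zygote against 1400.2 TPM in PB2, and *Dppa5a*, an RNA-binding protein of pluripotent cells, had 193.2 and 120.6 TPM. *Gm10639*, 6446 bases from *Omt2a*, had 2.4 and 5.6 TPM. The surroundings of *Rfpl4* are of low abundance: the 7 genes of the table there, *Fiz1*, *Zfp865*, *Ccdc106*, *Zfp580*, *U2af2*, *Epn1* and *Rasl2-9*, had at most 71.8 TPM, for *Rasl2-9* in the zygote.

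In these libraries, genes whose products process, bind or relay GDF9 and BMP15 were far less abundant than the growth factors themselves. No library was made of the granulosa and cumulus cells on which the factors act, so these are not levels of those cells. Precursors of the TGF-β family are cut by furin and related convertases. *Furin* had 1.4 TPM in the zygote against 11.5 TPM in PB2, a log2 ratio of 2.38, and *Pcsk6* had 2.9 and 7.2 TPM. Of the 6 proteases listed 5 were compared, with a median log2 ratio of 1.07, and 3 (*Furin*, *Pcsk6* and *Pcsk7*) passed 2-fold toward PB2. Beside this count and those of the lists below, 18.9% of all genes compared passed 2-fold toward PB2 and 8.09% toward the zygote. *Pcsk7* had 0.2 TPM in the zygote against 1.6 TPM in PB2, *Pcsk5* had 1.0 and 0.9 TPM, and *Tll1* had 13.4 and 9.3 TPM. Values of a few TPM are limited by the unknown depth. With the GC trend removed, the median of the proteases was 0.34.

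BMPR2 is the type II receptor of both factors, TGFBR1 serves GDF9 and BMPR1B serves BMP15. *Bmpr1b* was the most abundant receptor, with 83.8 TPM in the zygote against 66.6 TPM in PB2. *Bmpr2* had 22.8 and 10.8 TPM, a log2 ratio of -1.01, and *Tgfbr1* had 2.9 and 1.9 TPM. In contrast, *Bmpr1a* had 4.1 and 6.9 TPM, *Acvr1b* 3.8 and 6.4, *Acvr1* 1.0 and 1.5, and *Acvr2a* 1.7 and 2.0. These went toward PB2, with log2 ratios of 0.63, 0.62, 0.32 and 0.15. Of the 8 receptors listed, 7 were compared, of which 0 passed 2-fold toward PB2 and 1, *Bmpr2*, toward the zygote, with a median log2 ratio of 0.15 that was -0.19 with the length trend removed.

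SMADs carry the signal to the nucleus, SMAD2 and SMAD3 for GDF9 and SMAD1 and SMAD5 for BMP15. Of 8 SMADs listed 5 were compared, with a median log2 ratio of 1.60, and 3 passed 2-fold toward PB2, *Smad1*, *Smad3* and *Smad4*, with log2 ratios of 1.63, 1.60 and 1.61. *Smad2*, with 49.6 TPM in the zygote against 54.7 TPM in PB2, and *Smad5*, with 2.8 and 4.8 TPM, were not. With the GC trend removed, the median of the SMADs was 1.08. *Smad1*, *Smad3* and *Smad4* are among the genes the study took from its RNA-seq of PB2 and zygote into RT-qPCR, so their count is not independent evidence. Of the 7 antagonists listed, *Fstl3*, a follistatin-like binding protein of activins, was the 1 compared, with 2.1 and 5.1 TPM and a log2 ratio of 0.98 that was 0.16 with the GC trend removed.

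Other ligands of the oocyte and early embryo were set beside the growth factors. *Tgfb2* came nearest in level, with 757.4 TPM in the zygote against 678.9 TPM in PB2. *Bmp6*, another oocyte BMP, had 22.4 and 74.4 TPM, and its log2 ratio of 1.69 was above that of *Gdf9*. *Fgf8*, which acts with BMP15 on cumulus cells, had 45.2 and 68.6 TPM, and *Kit*, the oocyte's receptor for KIT ligand, had 41.9 and 35.8 TPM. Of the 14 genes listed 7 were compared, and *Bmp6* was the 1 past 2-fold, toward PB2. Their median log2 ratio was 0.44, but it was -0.06 with the GC trend removed and 0.14 with at least 5 TPM required in either library.

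The zona pellucida genes and *Astl* are also oocyte-specific and code for secreted proteins. *Zp1* had 90.9 TPM in the zygote against 209.3 TPM in PB2, *Zp3* had 236.4 and 453.3 TPM, and *Zp2* had 112.8 and 99.5 TPM. *Astl*, which encodes the egg protease that cleaves ZP2, had 17.7 and 93.1 TPM, a log2 ratio of 2.33. With *Oosp2*, *Oosp3* and *Plac1*, 7 genes were listed and compared, of which 2, *Zp1* and *Astl*, passed 2-fold toward PB2 and 0 toward the zygote, with a median log2 ratio of 0.08. With the GC trend removed, the median was 0.11, and the log2 ratio of *Zp3* went from 0.94 to 0.19. Without that removal, secreted products of the oocyte did not share 1 direction.

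**Figure D4:**
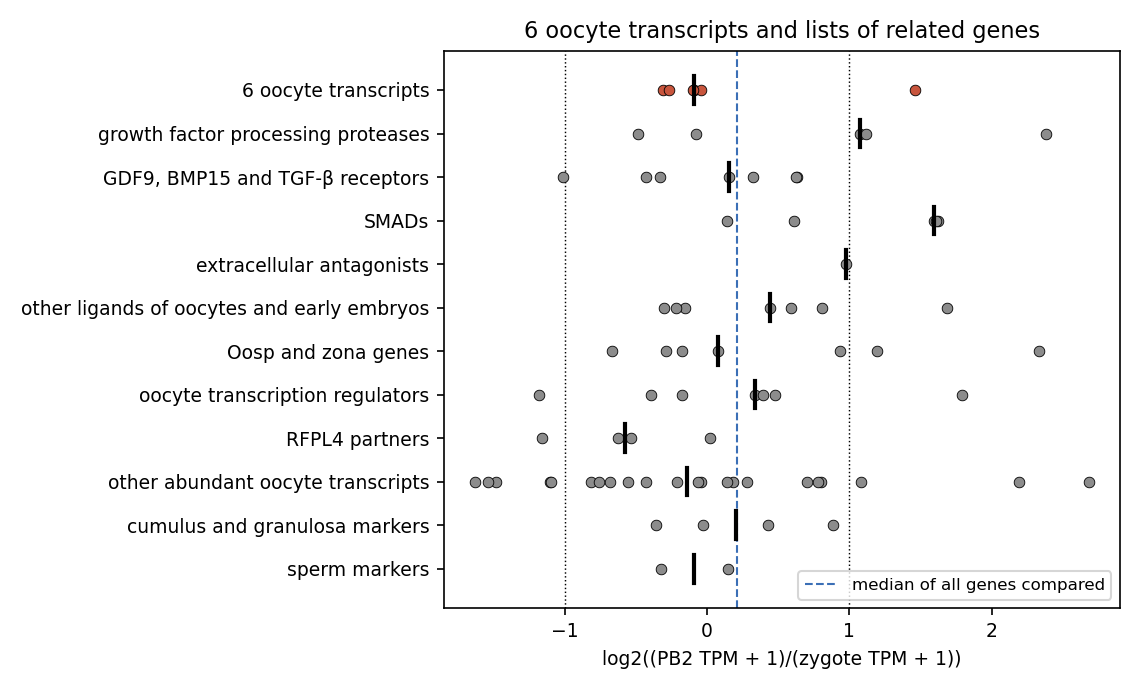
Log2 ratio (PB2 over zygote, pseudocount of 1 TPM) of the 6 oocyte transcripts in red and of the compared genes of 11 hand-written lists in grey, each point a gene and each black bar the median of its row. The dashed line is the median of all genes compared, 0.21, and dotted lines mark 2-fold. The medians go from -0.58 for the RFPL4 partners to 1.60 for the SMADs.

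Transcription factors of the growing oocyte switch on genes of this kind. Of 8 listed 7 were compared, with a median log2 ratio of 0.33 that was 0.0089 with the GC trend removed. *Lhx8* passed 2-fold toward PB2 with 42.0 TPM in the zygote against 147.7 TPM in PB2, and *Tbpl2* toward the zygote with 33.9 and 14.4 TPM. *Nobox* was the most abundant, with 223.5 and 312.0 TPM, and *Figla* had 6.8 and 5.9 TPM. *Nr6a1*, a repressor of *Gdf9* and *Bmp15*, had 21.2 and 28.2 TPM.

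Genes of proteins known to bind RFPL4 were set beside *Rfpl4*. *Ccnb1*, which encodes cyclin B1, had 1490.0 TPM in the zygote against 965.9 TPM in PB2. *Ubb*, a ubiquitin gene, had 1390.3 and 622.0 TPM, a log2 ratio of -1.16, and was the 1 of the 4 past 2-fold. *Psmb1*, a proteasome subunit, had 84.1 and 57.8 TPM, and *Ube2a*, a ubiquitin-conjugating enzyme, had 77.1 and 78.1 TPM. The median log2 ratio of the 4 was -0.58, against 0.21 for all genes compared. Genes with a mean of at least 1000 TPM had a median of -0.28 and a lower quartile of -0.76.

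Among 22 other abundant or oocyte-specific transcripts, the spread was wide. Past 2-fold were 3 toward PB2 and 5 toward the zygote, with a median log2 ratio of -0.14 that was -0.39 with the GC trend removed. The most abundant were *Bcl2l10* with 18407.3 TPM in the zygote against 22397.3 TPM in PB2, *Zbed3* with 5689.3 and 25991.0 TPM, *Dppa3* with 22561.9 and 8070.2 TPM, and *Btg4* with 16642.4 and 9470.9 TPM. *Oosp1*, *Omt2a*, *Omt2b* and *Rfpl4* were thus of the same order of abundance as these genes, some of which lay far from 0 on the log2 scale.

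Markers of the cells that surround or fertilize the egg were read as well. Of 20 cumulus and granulosa markers 4 were in the table, none at 0, and they summed to 81.0 TPM in the zygote against 80.3 TPM in PB2, mostly *Cyp19a1* with 72.2 and 70.9 TPM. *Kitl* had 6.3 and 4.7 TPM, *Fshr* 2.2 and 3.3 TPM, and *Star* 0.3 and 1.4 TPM. Of 8 sperm markers 2 were in the table, with a sum of 20.8 TPM in the zygote against 22.6 TPM in PB2, *Prm2* with 19.8 and 22.0 TPM and *Akap4* with 1.0 and 0.6 TPM. The median log2 ratios were 0.20 for the cumulus and granulosa markers and -0.09 for the sperm markers, and with at least 5 TPM required in either library they were -0.19 and 0.15. The remaining markers were not analysed here. The summed levels of both marker lists lay close together in the 2 libraries, carried by *Cyp19a1* and *Prm2*, while the markers of a few TPM differed more in ratio, and all were far below *Gdf9* and *Bmp15*.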

How the data were processed

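RNA-seq values of 1 PB2 library and 1 zygote library were analysed. According to the supplementary methods and the submitters' processing notes, the authors aligned reads with HISAT2 (2.0.4), counted them per gene with HTSeq (0.6.1p1) and normalized with DESeq2 (1.18.1). The methods name the rabbit assembly OryCun2.0, the notes also GRCm38, and the table uses mouse Ensembl identifiers. The authors deposited TPM values with 1 decimal. How TPM was computed, how reads matching several places were treated and whether strand was used are not given in the sources used here. The table sums to 92.7% of a full library in the zygote and 89.8% in PB2, the remaining genes were not analysed here, and 0 value columns were left over.

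Log2 ratios were computed with a pseudocount of 1 TPM over genes with at least 1 TPM in either library, which understates changes of low genes. With 1 library per group no p-value is given and no interval for counting error can be had. The members and lists were chosen with earlier results of these data known. Named genes are the 6 members, up to 4 genes with the highest mean TPM of each list or any of a list of 8 or fewer, the 2 nearest genes of each member, and table genes within 100 kb. Outside this rule, *Sap30* and AU022751 were named by their log2 ratio among abundant genes, after their values were seen. *Zbed3* is covered by the rule as a list gene, and was named beside them on the same ground. GC content and length are of the longest protein-coding transcript in GENCODE M21 (GRCm38), and trends were fitted by loess (span 0.3). Functions were tested on simulated data. Alternatives were other pseudocounts, filters, thresholds and scalings, removal of the GC or length trend, and *Omt2a* and *Omt2b* summed. Python 3.11.15, numpy 2.4.6, pandas 2.3.3, statsmodels 0.14.6 and matplotlib 3.10.9 were used.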

Additional observations from a re-analysis of the deposited data

How the results depend on the processing

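No paired analysis was possible because each group has 1 library. Under the alternatives, 152 values kept within their limits (0.5 on the log2 scale, 1.5 times for counts, shares and ratios) and 12 moved. The log2 ratio of *Gdf9* lay between 0.96 and 1.46, *Rfpl4* between -0.35 and -0.12 and *Oosp1* between -0.39 and -0.01, with no change of sign. The signs of *Bmp15* (-0.43 to 0.11), *Omt2a* (-0.12 to 0.14), *Omt2b* (-0.18 to 0.34) and the median of the 6 (-0.18 to 0.07) did change, by removal of a trend. With the GC trend removed, 0 of the 6 differed by 2-fold and 963 genes passed 2-fold toward PB2, and with the length trend removed 1283 did, against 2009. At 1.5-fold the counts were 3642 toward PB2 and 1924 toward the zygote, against 861 at 2-fold. At 4-fold they were 264 and 74, and 0 of the 6 passed, which follows from the threshold. The GC trend also moved the medians of the protease list to 0.34, of the SMADs to 1.08 and of *Fstl3* to 0.16. Medians of 4 other lists turned sign under 1 or more alternatives: the receptors, the other ligands, and the cumulus and sperm markers. The cause of these changes was not tested. Unknown depth limits the genes of a few TPM, such as *Furin* and *Tgfbr1*, and not the 6 oocyte transcripts by rounding.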
